A study of Rattus norvegicus with 18 samples.

Results

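The genes described here are a set of 10 that encode S100 calcium-binding proteins, annexins, intermediate filament and lamina proteins, a hyaluronan receptor and a small LIM protein: *S100a4*, *S100a6*, *S100a10*, *S100a11*, *Anxa1*, *Anxa2*, *Vim*, *Lmna*, *Cd44* and *Crip1*. They were taken by gene name from 3 tables of 32882 rat genes each. The set was chosen by its measured values in these tables, namely the difference of KO against control cells and the level in control cells of each tissue, so both are given as a description of these libraries. The fit over all genes also returned calls for these 10, and they are counted below only as a description, since the same values chose the set.

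The libraries hold 3′ mRNA of T-MBP cells, CD4+ T cells of Lewis rats that recognize myelin basic protein and cause experimental autoimmune encephalomyelitis after transfer. There were 18 libraries in 6 groups of 3, all from cells recovered on day 3 after transfer. *Ets1*-KO cells (edited, sorted by GFP) and control cells with a non-targeting guide (NT, labelled WT, sorted by BFP) came from the spinal cord parenchyma and from the spleen. *Grk2*-KO cells were compared with NT cells from the spleen. Each of these comparisons is called an experiment below. The labels do not say whether the parenchymal and spleen *Ets1* libraries came from the same rats or from separate transfers. All cells, controls included, had been transduced with a fluorescent protein, given Cas9 ribonucleoprotein, expanded and restimulated with MBP on irradiated thymocytes before transfer, and KO cells are an edited population rather than 1 clone. Editing thus went together with fluorescent protein and sort gate in the *Ets1* experiments. The study's *Grk2* co-transfers likewise used EGFP for KO and BFP for control cells. These cannot be told apart in the KO differences below. The number of animals behind each library and the age and sex of each recipient are not in the labels. The question the comparisons address is how loss of ETS1, a transcription factor of lymphocytes, or of GRK2, a kinase that acts on chemoattractant receptors, changes gene expression in these cells.

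S100 proteins are small, mostly calcium-binding proteins that work as dimers and bind partners such as annexins and nonmuscle myosin. Annexins bind phospholipid membranes in the presence of calcium, and annexin A2 forms a complex with S100A10 that links membrane to the cortical cytoskeleton. Vimentin filaments and the A-type lamins contribute to the stiffness of the cytoplasm and the nucleus, and CD44 binds hyaluronan at the cell surface and marks antigen-experienced T cells. Transcripts of this kind are abundant in activated and memory T cells, and they are known from studies of cell motility, which was not measured in these libraries.

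In the genome build of the tables, Rnor_6.0, 5 of the 10 genes lie on chromosome 2, and 4 of those are S100 genes in neighbouring pairs. *S100a4* (chr2:189997128-189999604) and *S100a6* (chr2:190007215-190008511) are 7.61 kb apart, with *S100a5*, which had at most 2 reads in any library, between them. *S100a11* (chr2:193866950-193868502) and *S100a10* (chr2:193892588-193901236) are 24.1 kb apart. *Lmna* is also on chromosome 2, *Vim* on 17, *Anxa1* on 1, *Anxa2* on 8, *Cd44* on 3 and *Crip1* on 6. All 10 are annotated as protein-coding. A miRNA gene inside *Anxa2*, with at most 3 reads, is the only annotated gene that overlaps any of them.

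Promoter sequences are shown for the genes whose differences recur below, *S100a4* and *S100a6*, which were higher in KO cells of both spleen experiments, and *Vim* and *Cd44*, which were lower in *Ets1*-KO cells of the parenchyma and higher in *Grk2*-KO cells of the spleen. They come from RefSeq on GRCr8, a later build than that of the tables, and run from 250 bases before to 50 bases after the annotated start, 5′ to 3′ on the strand of the gene. Capitals mark matches, on either strand, to the TATA box (TATAAA), the GC box (GGGCGG), the AP-1 site (TGANTCA), an ETS core (CCGGAAG) or the SRF CArG box.
*S100a4* (chr2:178388279-178388578, plus strand): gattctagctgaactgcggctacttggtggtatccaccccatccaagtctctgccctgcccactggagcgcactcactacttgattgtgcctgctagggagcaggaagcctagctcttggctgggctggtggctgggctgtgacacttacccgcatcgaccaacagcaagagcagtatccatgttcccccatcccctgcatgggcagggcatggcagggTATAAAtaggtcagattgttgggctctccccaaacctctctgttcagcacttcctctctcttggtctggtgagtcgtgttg
*S100a6* (chr2:178398287-178398586, plus strand): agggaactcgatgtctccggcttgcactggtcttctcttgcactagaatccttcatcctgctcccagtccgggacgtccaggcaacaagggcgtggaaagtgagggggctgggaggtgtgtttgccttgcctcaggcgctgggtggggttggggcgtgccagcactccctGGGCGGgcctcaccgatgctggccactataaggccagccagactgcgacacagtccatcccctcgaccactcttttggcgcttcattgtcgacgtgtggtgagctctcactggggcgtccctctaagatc
*Vim* (chr17:81577011-81577310, plus strand): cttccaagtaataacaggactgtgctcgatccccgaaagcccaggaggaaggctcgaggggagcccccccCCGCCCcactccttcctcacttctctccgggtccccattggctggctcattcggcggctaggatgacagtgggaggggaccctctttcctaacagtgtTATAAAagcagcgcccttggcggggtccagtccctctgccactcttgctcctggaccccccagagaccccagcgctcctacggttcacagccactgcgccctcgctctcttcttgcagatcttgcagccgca
*Cd44* (chr3:109699375-109699674, minus strand): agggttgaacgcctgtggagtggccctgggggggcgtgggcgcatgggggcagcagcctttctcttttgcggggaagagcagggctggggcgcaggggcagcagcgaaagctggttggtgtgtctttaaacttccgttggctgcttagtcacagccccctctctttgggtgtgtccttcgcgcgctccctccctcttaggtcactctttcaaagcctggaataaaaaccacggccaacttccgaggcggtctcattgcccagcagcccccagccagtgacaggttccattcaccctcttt

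The *S100a4* window holds a TATAAA match at position -31 from the start, *S100a6* a GGGCGG match at -80, *Vim* a TATAAA match at -82 and a GGGCGG match on the opposite strand at -180, and *Cd44* none of the 5 motifs. In RefSeq 9 of the 10 genes were matched, with 1 window each and 2 for *Crip1*. TATAAA was found in 4 of these 10 windows (*S100a4*, *Vim*, *Anxa1* and *Anxa2*) and in 14.2% of all 33469 promoters of the same length. GGGCGG was found in 6, against 33.1% of all promoters, and TGANTCA in 2 (*Anxa2* and *Lmna*), against 7.33%. The CCGGAAG letters were present in 1 of the *Crip1* windows and in 8.75% of all promoters, and the SRF CArG box in none, against 1.64%. The windows' GC content ran from 45% (*Anxa1*) to 68% (*Anxa2*), with a median of 51.7% over all promoters. These matches are letters in a window and were not tied to any measured binding.

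Each library held between 898092 and 2248258 reads assigned to genes. In the spleen *Ets1* experiment the KO libraries were deeper (1909862 to 2248258 reads) than their controls (898092 to 1213485), and mitochondrial genes took 14.1%, 14.9% and 21.0% of the reads in KO replicates 1, 2 and 3 against 17.3% to 18.6% in the controls. KO replicate 3 of that experiment stood apart from both other KO libraries: chi-square per degree of freedom over genes was 9.66 and 10.0 for these pairs and between 1.48 and 4.44 for all other replicate pairs. Transcripts of 9 T cell marker genes summed to 2680 to 3500 RPM (reads scaled to 1000000 reads on genes) in all 18 libraries, with *Cd4* itself at a low 6.45 to 49.1 normalized counts. Endothelial and stromal markers summed to at most 2.23 RPM. *Grk2* was lower in *Grk2*-KO cells, at 53.3, 64.2 and 87.3 normalized counts against 166, 166 and 142 in controls (log2 fold change -1.22 ± 0.13, limma adjusted p = 1.76e-12). *Ets1* mRNA did not pass the test in either tissue (log2 fold change 0.087 ± 0.068, limma adjusted p = 0.56, in parenchyma and -0.064 ± 0.11, adjusted p = 0.854, in spleen), and reads near the 3′ end need not cover the edited site, so this checks nothing about the edit. The study states that KO efficiency was checked beforehand in the single-KO lines of its validation experiments.

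*S100a6*, which encodes calcyclin, was higher in KO cells of all 3 experiments. In parenchyma it had 550.2, 634 and 560.2 normalized counts (reads divided by the library's size factor) in the NT libraries and 775, 937 and 867 in the *Ets1*-KO libraries. In spleen the *Ets1* experiment gave 592, 729 and 470.1 in controls and 1502, 1193 and 1072 in KO cells, and the *Grk2* experiment gave 1049, 1062 and 1079.7 and 1719, 1493 and 1494. Each KO library was above every control library of its own experiment. The log2 fold changes on the log2(normalized count + 1) scale were 0.56 ± 0.081, 1.08 ± 0.12 and 0.56 ± 0.069 in this order. The SE (±) of each fold change is that of a fit that pairs libraries of the same number. It is a moderated SE, which borrows from the variance of other genes.

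*S100a4*, the neighbouring gene, whose protein binds nonmuscle myosin IIA, differed from its controls in the spleen but hardly in the parenchyma. Spleen *Ets1*-KO libraries read 7519, 5643 and 4911 normalized counts against 3362, 3919 and 3270.3 in controls, without overlap and with the largest difference in pair 1 (log2 fold change 0.76 ± 0.14). *Grk2*-KO libraries read 8115, 6335 and 6801 against 6339.9, 4916 and 4748 (log2 fold change 0.41 ± 0.066). Here the groups overlapped at 1 control library, replicate 1, although KO was above control in all 3 pairs. In parenchyma the values were 2099.8, 2499 and 2012 in controls and 2075, 2611 and 2457 in *Ets1*-KO libraries, with overlap (log2 fold change 0.11 ± 0.068).

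The calls of both S100 genes in the spleen *Ets1* experiment were lost without its first pair, when only 3 of all genes were called. Without pair 1 the log2 fold change was 0.56 for *S100a4* and 0.95 for *S100a6*, and neither was called. Without pair 3, which holds the KO library that stood apart, it was 0.84 and 1.03, and without pair 2 0.87 and 1.26.

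*S100a10*, the partner of annexin A2 that does not bind calcium, lay close to its controls throughout. Its parenchymal values were 400.0 to 451 in controls and 335 to 408 in *Ets1*-KO libraries, and its log2 fold changes were -0.17 ± 0.093 there, 0.22 ± 0.12 in the spleen *Ets1* experiment and 0.072 ± 0.067 in the *Grk2* experiment. In the last, every KO library (1455 to 1570.2) was above every control (1411 to 1432). *S100a11*, an annexin A1 partner, was scarce: 3.93 to 5.64 normalized counts in parenchymal controls, which is under the minimum mean of 10 set for fitting, 40.7 to 55.8 in controls of the spleen *Ets1* experiment and 15.2 to 28.2 in those of the *Grk2* experiment. Its spleen log2 fold changes, -0.39 ± 0.23 and 0.065 ± 0.29, had SEs of the order of the values, and pairs went both ways.

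*Vim*, the main intermediate filament gene of leukocytes, differed in opposite directions in 2 of the experiments. Parenchymal *Ets1*-KO libraries read 1091, 1268 and 1354 normalized counts against 1833, 2049 and 1891 in controls, so that the highest KO library was below the lowest control (log2 fold change -0.64 ± 0.072). *Grk2*-KO libraries read 6979, 6612 and 6921 against 5067, 4619 and 4976, the lowest KO library being above the highest control (log2 fold change 0.48 ± 0.066). In the spleen *Ets1* experiment the groups overlapped, at 6592, 7164 and 7480.3 in KO and 7096, 6877 and 9551 in control libraries (log2 fold change -0.13 ± 0.14). The spleen control of replicate 3 was the highest of these 6 libraries.

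*Cd44*, encoding the hyaluronan receptor, followed the same order of directions at lower counts. It was lower in every parenchymal *Ets1*-KO library (95.0, 120.3 and 98.6) than in every control (152, 173 and 147), with a log2 fold change of -0.59 ± 0.13, which limma called and DESeq2 did not. It was higher in every *Grk2*-KO library (511, 456 and 488) than in every control (314, 387 and 389.6), with 0.42 ± 0.083. Here too limma called it and DESeq2 did not. The spleen *Ets1* values spread widely in controls, 190.3, 233 and 136 against 155, 173 and 187 in KO libraries, and the log2 fold change of -0.092 ± 0.15 became -0.36 without pair 3 and 0.077 without pair 2.

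*Lmna*, which encodes lamins A and C, was measurable mainly in the *Grk2* experiment. There it read 52.0, 55.4 and 53.6 normalized counts in controls and 78.6, 93.2 and 130.1 in KO libraries, with no overlap and a log2 fold change of 0.86 ± 0.16, the largest of the 10 genes in that experiment. KO replicate 3 was the highest, and without pair 3 the log2 fold change was 0.66. In parenchyma it had 0, 2 and 9 reads in the control libraries and 8, 3 and 5 in the *Ets1*-KO libraries. The 0 allows up to 3 reads, or 2.01 RPM in that library, so no difference could be seen at this depth. The spleen *Ets1* experiment gave 7.66 to 14.1 normalized counts in controls and 4.34 to 8.12 in KO libraries, which overlapped, again under the minimum for fitting.

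*Anxa2* was above control in all 3 *Grk2* pairs, at 583, 505 and 478 against 546, 381 and 363 normalized counts, but the groups overlapped at control replicate 1 (log2 fold change 0.30 ± 0.08). In both *Ets1* experiments its groups overlapped, with log2 fold changes of 0.19 ± 0.11 in parenchyma and 0.13 ± 0.11 in spleen. *Anxa1*, whose product acts on formyl peptide receptors, had 65.4, 69.6 and 60.9 in parenchymal controls and 84.9, 86.9 and 72.5 in *Ets1*-KO libraries, without overlap and with a wide SE (log2 fold change 0.31 ± 0.17). Its spleen values were 0.074 ± 0.14 and 0.17 ± 0.079 on the log2 scale, each with at least 1 pair against the others. *Crip1*, encoding a small protein made largely of a LIM domain, was at -0.025 ± 0.084 on the log2 scale in parenchyma and at 0.21 ± 0.12 and 0.18 ± 0.066 in spleen, where KO was above control in all 3 pairs of both experiments and the groups overlapped.

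**Figure D1:**
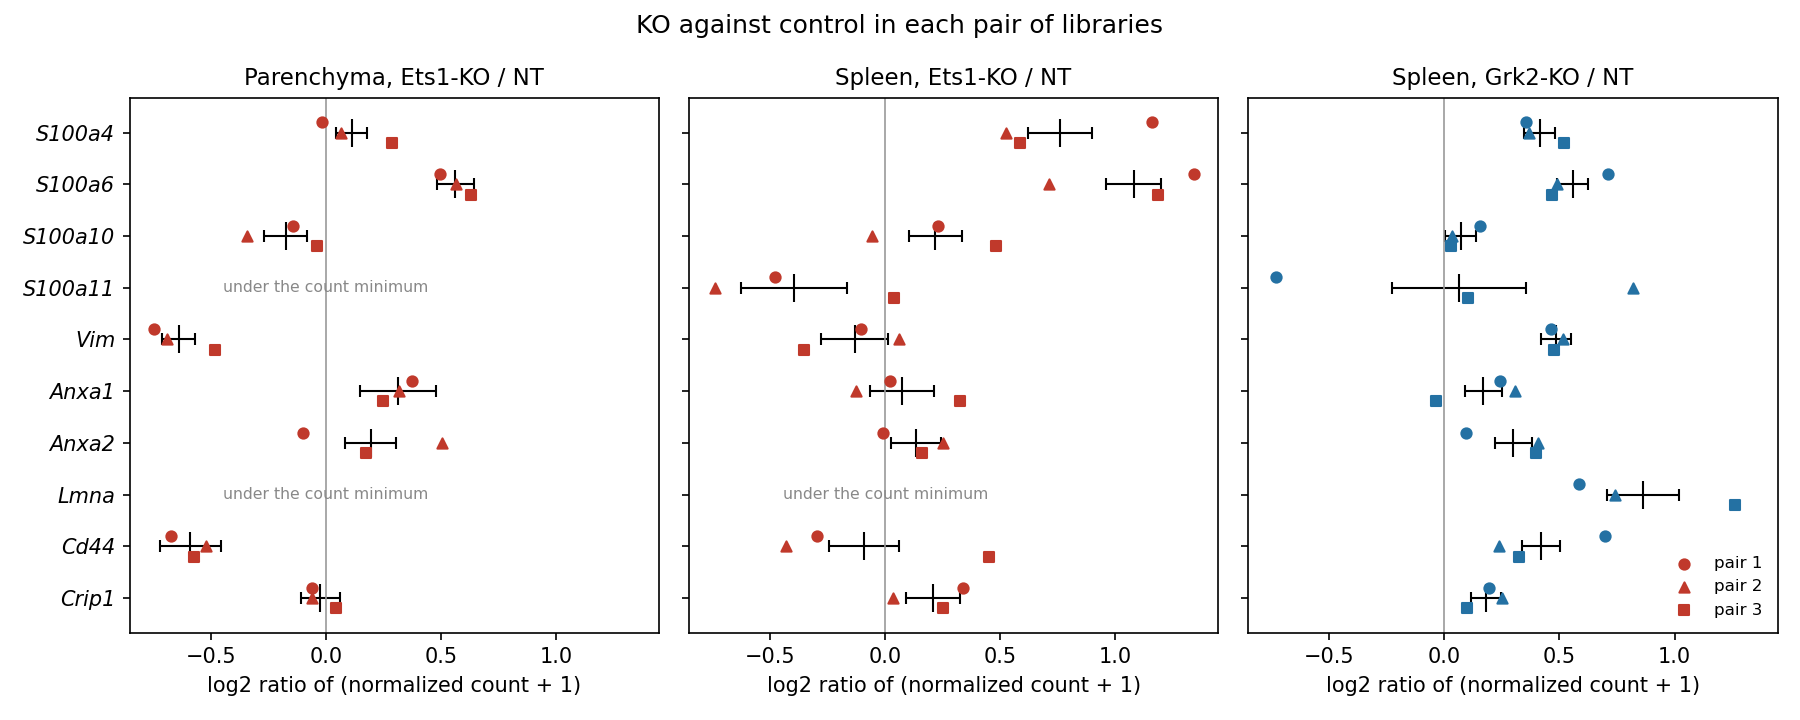
Log2 ratio of KO to control (normalized count + 1) for each of the 10 genes in each pair of libraries with the same replicate number (circle, triangle and square for pairs 1, 2 and 3), with the fitted log2 fold change (vertical tick) and its SE (bar), in parenchyma *Ets1*, spleen *Ets1* and spleen *Grk2*. *S100a6* is to the right of 0 in all 9 pairs, *Vim* and *Cd44* are to the left in all 3 parenchymal pairs and to the right in all 3 *Grk2* pairs, and *Lmna* and *S100a11* are left blank where under the count minimum.

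Over the set, 8 genes were fitted in the parenchyma, 9 in the spleen *Ets1* experiment and 10 in the *Grk2* experiment. With limma at an adjusted p under 0.05, 1 parenchymal member was called higher (*S100a6*) and 2 lower (*Vim* and *Cd44*), where 5.23% of all 7002 fitted genes were called, 2.27% higher and 2.96% lower. In the spleen *Ets1* experiment 2 were called higher (*S100a4* and *S100a6*) and 0 lower, where 2.22% of 6979 genes were called, 1.02% higher and 1.2% lower. In the *Grk2* experiment 6 were called higher (*S100a4*, *S100a6*, *Vim*, *Anxa2*, *Lmna* and *Cd44*) and 0 lower, where 1.56% of 6985 genes were called, 0.931% higher and 0.63% lower. The groups did not overlap for 4, 2 and 5 of the fitted members, against 18.4%, 16.9% and 12.2% of all fitted genes. DESeq2 called 2 members in parenchyma, where it left out *Cd44*. In the *Grk2* experiment it left out *Anxa2*, *Lmna* and *Cd44*. As the genes were chosen on these contrasts, nothing is read from these counts, and the calls are no evidence for the set. The median log2 fold change was 0.044, 0.13 and 0.36 over the fitted members and -0.029, 0.00039 and 0.018 over all fitted genes.

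The *Grk2* differences depended on how the libraries were paired and scaled. Without the replicate block 3 of the 6 stayed called (*S100a6*, *Vim* and *Lmna*). After quantile normalization the log2 fold change was 0.13 for *S100a4* and 0.18 for *Vim*, both among the most abundant transcripts, and neither was called, while it stayed at 0.53 for *S100a6*, 0.83 for *Lmna* and 0.40 for *Cd44*. Upper quartile scaling gave 0.39 for *S100a4* and 0.47 for *Vim*. *Anxa2* was called in only 4 of 13 alternatives. Leaving out pair 2 or 3 ended the call of *Lmna* and leaving out pair 1 or 2 that of *Cd44* (0.28 and 0.51).

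The summed level of 16 myeloid and microglial markers was 92.5 to 125 RPM in *Grk2*-KO libraries and 76.1 to 88.2 in their controls. Nearly all of it was *Cst3* (105 and 79.7 RPM on average), and 7 of the 16 in KO and 9 in control libraries had no read, *C1qa*, *C1qb*, *C1qc* and *Fcgr3a* being at 0 in both groups. In the spleen *Ets1* experiment the sums were 107 to 111 in KO and 70.9 to 114 in control libraries, and in parenchyma 97 to 130 and 89.1 to 118. *Cst3* did not pass the test in any of the 3 experiments (limma adjusted p = 0.902, 0.286 and 0.115). The part of such cells in the members' values was not tested. In bulk RNA, fewer cells with a transcript and less transcript per cell cannot be told apart.

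In control cells, all 10 genes had a lower level in the parenchyma than in both spleen control groups. Levels are given in RPM, mean ± SD of 3 libraries, and they come from separately processed tables: parenchymal cells were isolated on a Percoll gradient, and spleen cells by erythrocyte lysis and magnetic CD4+ enrichment, so tissue and isolation cannot be told apart. *Vim* was at 1353 ± 50.4 in parenchyma, 5818 ± 839 in the spleen controls of the *Ets1* experiment and 3758 ± 199.8 in those of the *Grk2* experiment. *S100a4* was at 1549 ± 152, 2629.7 ± 364 and 4109 ± 746. *Crip1* was at 433 ± 17.4, 1625 ± 312 and 1500.0 ± 190.0. For these genes the parenchymal range lay wholly below both spleen ranges.

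The annexins and S100 partners were also lowest in parenchyma, but the order of the spleen control groups differed among them. *Anxa2* was at 137 ± 8.51 in parenchyma against 581 ± 102 and 332 ± 83.6 in spleen, and *Anxa1* at 45.9 ± 2.48 against 120.0 ± 26.8 and 371 ± 33.3. *S100a10* was at 299 ± 20.8 against 627 ± 167 and 1094 ± 19.5. *S100a11* had the largest difference from the *Ets1* experiment's spleen controls, 3.34 ± 0.549 against 35.9 ± 6.57, a ratio that rests on 4 to 6 reads per parenchymal library, and its level in the *Grk2* experiment's controls was 15.7 ± 5.6.

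For *S100a6* (409 ± 23.5 in parenchyma, 448 ± 115 and 818 ± 5 in spleen), *Cd44* (111 ± 7.48, 140.3 ± 42.0 and 279 ± 28.9) and *Lmna* (2.52 ± 3.31, 8.87 ± 2.72 and 41.3 ± 1.33) the parenchymal libraries overlapped those of the *Ets1* experiment's spleen controls. They were apart from the *Grk2* experiment's controls. Without mitochondrial genes in the total, the *S100a6* difference from the *Ets1* experiment's spleen controls was 0.027 on the log2 scale instead of -0.13, and without replicate 2 it was 0.019, so that its direction turned.

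**Figure D2:**
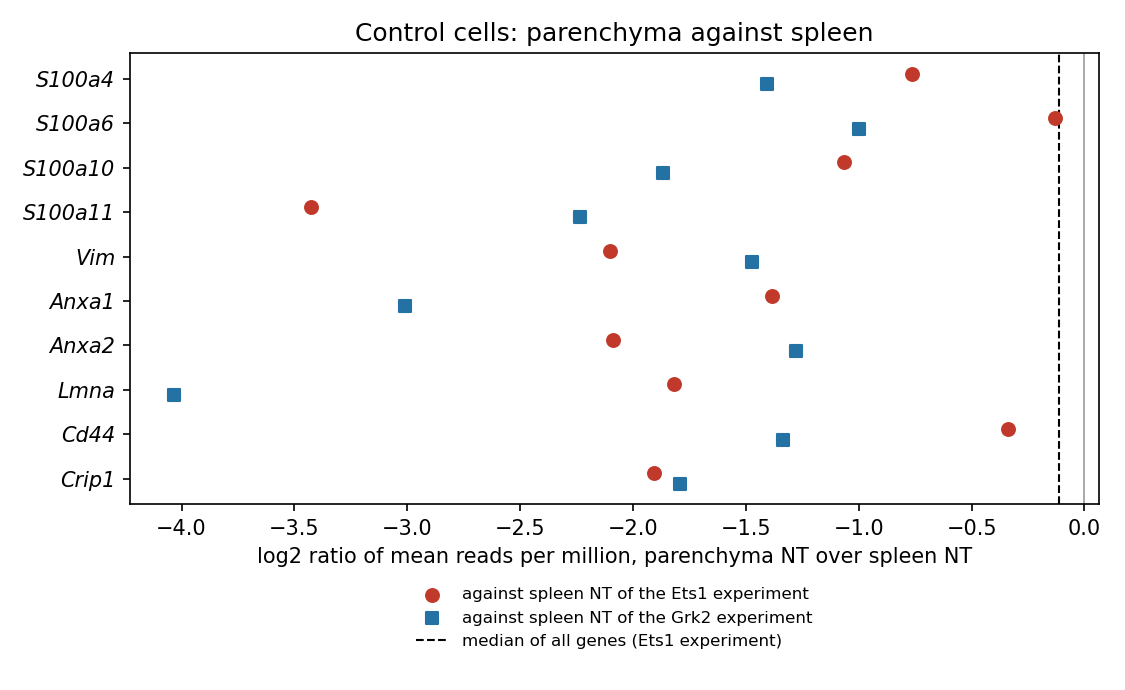
Log2 ratio of mean RPM in parenchymal control cells to that in spleen control cells for each of the 10 genes, against the spleen controls of the *Ets1* experiment (red circles) and of the *Grk2* experiment (blue squares). The dashed line is the median of all genes, -0.11, and all 20 points lie left of 0, from -4.03 for *Lmna* to -0.13 for *S100a6*.

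The median log2 ratio of parenchyma to spleen over the 10 genes was -1.60 against the *Ets1* experiment's controls and -1.63 against those of the *Grk2* experiment. Over 6657 genes it was -0.11 in both cases, and 37.5% of those genes were lower in parenchyma than in both spleen groups. The 10 genes took 0.415% to 0.461% of reads in parenchymal control libraries and 1.16% to 1.36% in spleen control libraries. In *Ets1*-KO cells the shares were 0.379% to 0.438% in parenchyma and 1.26% to 1.58% in spleen, and in *Grk2*-KO cells 1.51% to 1.76%. The rule that chose the set used these control levels, so the tissue difference describes the set and does not support it. Markers of glia and neurons, led by *Mbp*, summed to 62.8 to 76.5 RPM in parenchymal controls and 18.9 to 47.1 in spleen controls, and their part in the levels was not tested. Mitochondrial genes took 25.4% to 27.4% of reads in parenchymal controls and 17.3% to 22.6% in spleen controls, and without them the members' median log2 ratio against the *Ets1* experiment's controls was -1.45. T cell markers summed to 3370 to 3500 RPM in parenchymal *Ets1*-KO libraries and 3100 to 3280 in their controls, and the part of this in the *Vim* and *Cd44* values was not tested either.

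The spleen control groups of the 2 experiments also differed from each other, although both are NT cells from the same organ on the same day. *Lmna* was 4.65-fold and *Anxa1* 3.09-fold as high in the *Grk2* experiment's controls as in those of the *Ets1* experiment, while *S100a11* was at 0.438, *Anxa2* at 0.571 and *Vim* at 0.646 times the level. Only for *Crip1* did the ranges of these control groups overlap. The median log2 ratio between them was 0.72 over the 10 genes and -0.018 over all genes. What differed between these control groups was not tested.

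**Figure D3:**
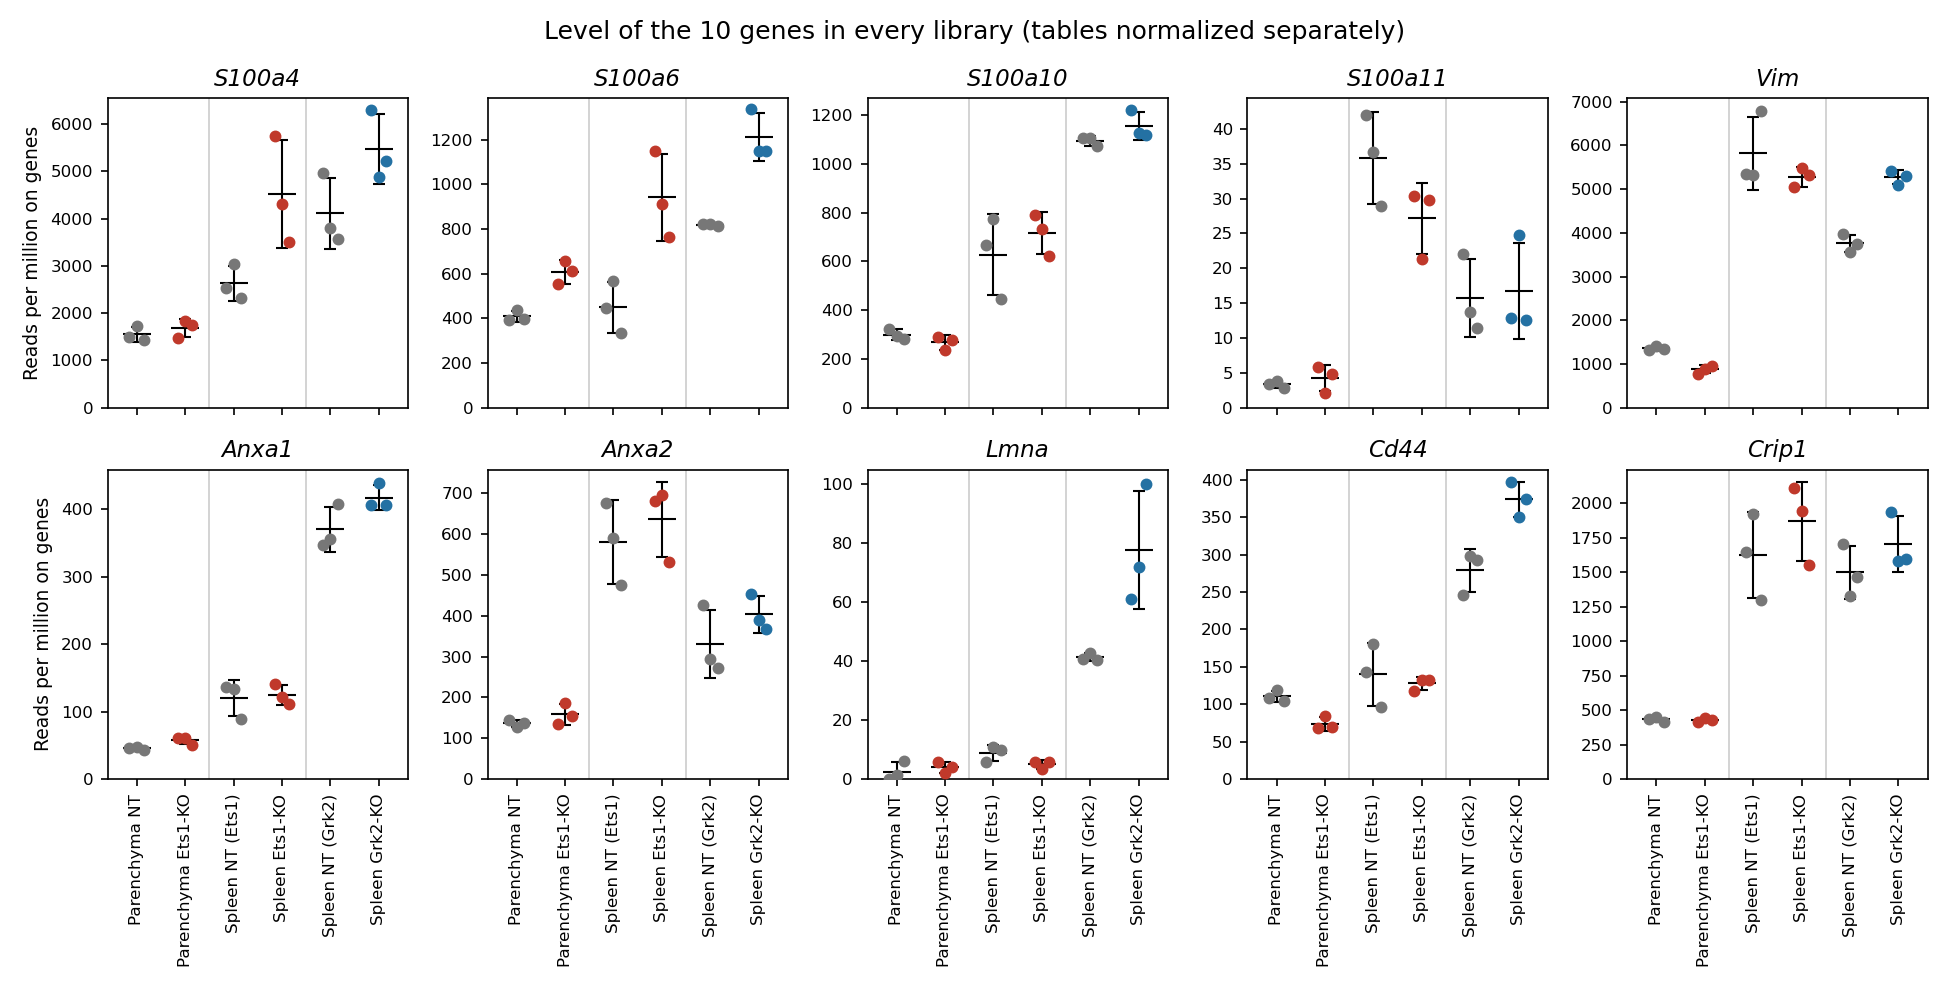
Level in RPM (the axis label spells it out) for each of the 10 genes in every library of the 6 groups (grey, NT controls; red, *Ets1*-KO; blue, *Grk2*-KO), with the mean (horizontal line) and SD (bar) of 3 libraries and a linear axis from 0 in each panel. All 10 genes sit lowest in the parenchymal control or parenchymal KO cells, and the spleen controls of the 2 experiments lie apart for every gene but *Crip1*.

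Set in order over the 6 groups, the members formed no common ranking above the parenchyma. *S100a4*, *S100a6*, *S100a10*, *Anxa1*, *Lmna* and *Cd44* had their highest mean in *Grk2*-KO cells, for example 1211 ± 108 RPM for *S100a6*, 77.6 ± 20.0 for *Lmna* and 374 ± 23.1 for *Cd44*. *Vim* and *S100a11* were highest in the spleen controls of the *Ets1* experiment, and *Anxa2* (636 ± 91.9) and *Crip1* (1870.3 ± 288) in spleen *Ets1*-KO cells. Neighbours in these orders often could not be separated: the libraries overlapped in 4 of the 5 steps for *S100a6*, *S100a11* and *Crip1*, in 3 for *S100a4*, *Anxa2* and *Lmna*, and in 2 for *S100a10*, *Vim*, *Anxa1* and *Cd44*. *Vim* was lowest in parenchymal *Ets1*-KO cells (875 ± 91.4), with no overlap with any other group, and *Cd44* likewise (73.9 ± 9.03).

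Relatives and partners of the 10 genes were taken from 7 lists of 91 genes, written as families with earlier results of these data known. In parenchyma 27 of these were fitted, and 2 rose and 0 fell in *Ets1*-KO cells, where 2.27% and 2.96% of all fitted genes did. In the spleen *Ets1* experiment 1 of 29 rose and 2 fell, against 1.02% and 1.2%, and in the *Grk2* experiment 1 of 29 rose and 0 fell, against 0.931% and 0.63%.

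Other annexins were fitted in each experiment (*Anxa4*, *Anxa5*, *Anxa6*, *Anxa7* and *Anxa11*), and limma called 0 of the 5 in each. At an unadjusted p under 0.05 there were 1, 0 and 1 of them in parenchyma, spleen *Ets1* and spleen *Grk2*. In the *Grk2* experiment all 5 had positive log2 fold changes, 0.14 to 0.32, with adjusted p of 0.426 or more. *Anxa6*, an annexin abundant in lymphocytes, had 423, 385 and 384 normalized counts in controls and 449, 401 and 461 in *Grk2*-KO libraries. Of 12 other S100 genes in the tables only *S100a13* reached the minimum, in the spleen. It was not called (1.39 ± 0.55, limma adjusted p = 0.238, in *Ets1*-KO and -0.05 ± 0.33, limma adjusted p = 0.985, in *Grk2*-KO cells). *S100a8* and *S100a9*, the calprotectin genes of myeloid cells, had at most 11 and 4 reads in any library.

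Among partners, *Ahnak*, whose giant protein binds the annexin A2 and S100A10 complex, rose in parenchymal *Ets1*-KO cells, from 228, 216 and 246 to 288, 315 and 313 normalized counts (log2 fold change 0.41 ± 0.10, limma adjusted p = 0.00353, 0.00129 to 0.339 over 13 alternatives). Without pair 2 it was not called (0.34), nor was it with DESeq2. It had 0.20 ± 0.11 in spleen *Ets1*-KO cells (limma adjusted p = 0.423) and 0.15 ± 0.079 in *Grk2*-KO cells (adjusted p = 0.503). *Myh9*, the partner of S100A4, had no read in 5 of the 6 groups. Reads came from the 3′ end and were counted only on annotated genes, so this does not show that its transcript was absent. *Cacybp*, encoding the calcyclin-binding protein, was not called in any experiment (log2 fold changes -0.14 ± 0.12, -0.11 ± 0.12 and -0.018 ± 0.091).

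Among CD44 partners and hyaluronan genes, *Cemip2*, which encodes a cell-surface protein linked to hyaluronan breakdown, rose in parenchymal *Ets1*-KO cells, where *Cd44* was lower. It had 151, 153 and 157 normalized counts in controls and 300.2, 291 and 233 in KO libraries, with no overlap (log2 fold change 0.82 ± 0.11, limma adjusted p = 6.16e-11, 4.66e-12 to 0.215 over 13 alternatives). The actin linkers of CD44 were near their controls there, *Ezr* at -0.10 ± 0.083, *Rdx* at 0.16 ± 0.11 and *Msn* at -0.12 ± 0.066, and none was called in any experiment. *Spn*, the gene of the sialomucin CD43, had 3192, 3538 and 3606 in parenchymal controls and 3766, 3915 and 3754 in KO libraries, and it was not called either (0.15 ± 0.066, limma adjusted p = 0.197).

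In the lamina list 2 of 9 fitted genes were lower in spleen *Ets1*-KO cells. *Lmnb1*, encoding a B-type lamin, went from 442, 356 and 509 to 242, 234 and 267 normalized counts (log2 fold change -0.80 ± 0.12, limma adjusted p = 0.000633, 1.3e-07 to 0.322 over 13 alternatives). *Tmpo*, encoding the lamina-associated LAP2 proteins, went from 242, 241 and 235 to 159.5, 158 and 181 (-0.53 ± 0.13, limma adjusted p = 0.029, 0.00754 to 0.553). Each KO library was below every control for both genes. Without pair 1 neither was called (-0.76 and -0.49). *Tmpo* was also not called without pair 2, without the replicate block or with DESeq2. In parenchyma *Lmnb1* was at -0.19 ± 0.14 (limma adjusted p = 0.55) and *Tmpo* at -0.24 ± 0.21 (adjusted p = 0.617), and the difference between tissues was not tested. In *Grk2*-KO cells *Sun1*, which anchors the nuclear envelope to the cytoskeleton, was at 132, 123 and 122 against 78.0, 93.1 and 106 (log2 fold change 0.45 ± 0.13, limma adjusted p = 0.0469). Of the alternatives 10 of 13 did not call it (adjusted p 0.0453 to 0.999).

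Besides *Vim* and *Nefl*, the cytoplasmic intermediate filament genes listed were nearly absent. Of the 17 filament and linker genes, 8, 9 and 11 were at 0 in all 6 libraries of the parenchyma, spleen *Ets1* and spleen *Grk2* tables. *Nefl*, the neurofilament light chain gene, rose in spleen *Ets1*-KO cells at low counts, from 48.1, 20.4 and 40.7 to 68.5, 79.4 and 118 normalized counts (log2 fold change 1.31 ± 0.23, limma adjusted p = 0.00328, 1.3e-07 to 0.322 over 13 alternatives), where leaving out single pairs gave 1.01 to 1.71. Here limma called it and DESeq2 did not. The linkers *Plec* and *Macf1* were not called in any experiment. Of the LIM-only relatives of *Crip1*, *Csrp1* and *Lmo4* were fitted everywhere and not called. *Csrp1* came nearest in spleen *Ets1*-KO cells, at 377, 382 and 369.7 against 494, 433 and 567 normalized counts (-0.40 ± 0.12, limma adjusted p = 0.0752).

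**Figure D4:**
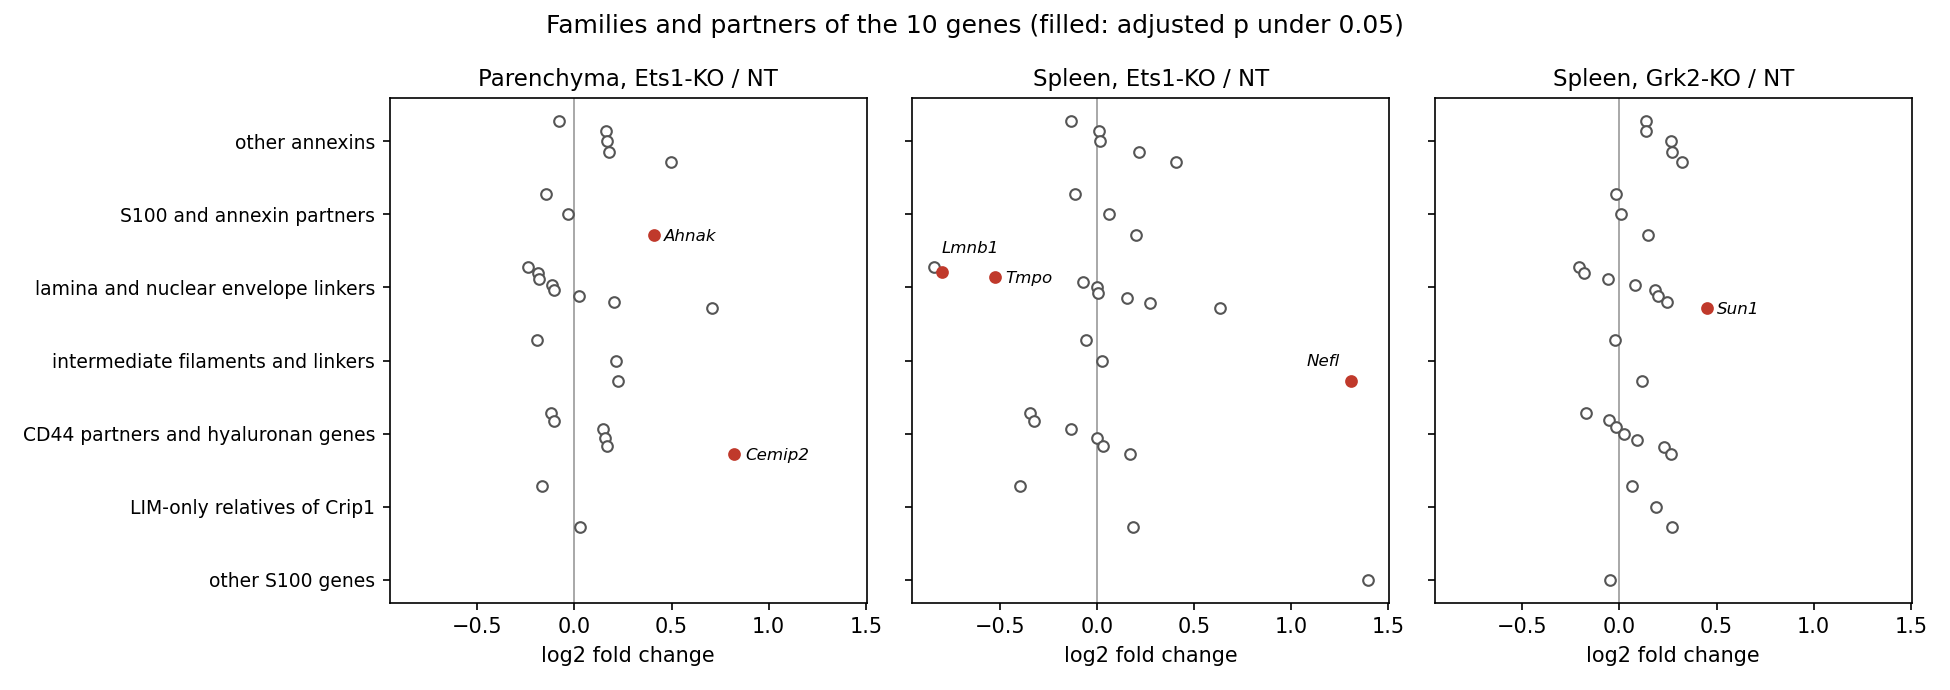
Log2 fold change of KO against control for every fitted gene of the 7 related lists in the 3 experiments, one point per gene, filled red where the limma adjusted p was under 0.05. *Cemip2* and *Ahnak* in parenchyma, *Nefl*, *Lmnb1* and *Tmpo* in spleen *Ets1* and *Sun1* in spleen *Grk2* are the filled points, and none of the annexins is filled.

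Over the 9 pairs, log2 KO to control ratios were ranked by their correlation with the median ratio of the members. The highest were *Nubp2* (Pearson r = 0.948), *H1f5* (0.933), *Rida* (0.928), *Tti1* (0.915) and *Upp1* (0.914), of 6199 genes fitted in all 3 tables. The median itself was -0.079, 0.0017 and 0.11 in the parenchymal pairs, 0.12, 0.046 and 0.39 in the spleen *Ets1* pairs and 0.30, 0.34 and 0.36 in the *Grk2* pairs. Pearson r takes no account of level or scale, so a high r does not mean ratios near the median. *H1f5* was at -1.32, -1.22 and -0.34 in parenchyma and at -0.21, 0.30 and -0.17 in *Grk2* pairs. *Upp1*, the uridine phosphorylase gene, went from -0.22, 0.10 and 0.21 in parenchyma to 0.63, 0.33 and 0.51 in *Grk2* pairs. With pairs of 1 experiment sharing their tissue, guide and sort, these r are a description over 9 points and carry no test.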

How the data were processed

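Polyadenylated RNA of sorted T-MBP cells was sequenced from the 3′ end (Collibri 3′ mRNA kit) in 18 rat libraries, 3 in each of 6 groups set by the sample labels. Per the labels and the study's methods, the authors aligned reads with STAR 2.7.2b to Rnor_6.0 and counted them per gene with HTSeq 1.0.0. The deposited signal values are those counts divided by size factors that the authors computed with DESeq2 2.11.40.7 (poscounts) in R 4.0.0, separately in each of 3 tables. Dividing by each library's smallest positive value gave whole reads for 100% of the values within 0.01 read. In parenchymal *Ets1*-KO replicates 1 and 2 this step was the same in both libraries and close to 1, so that their size factors could not be told apart, although their reads differed. The floor given for a 0, up to 3 reads, covers counting error only.

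Each table was fitted with limma 3.58.1 in R 4.3.3 on log2(normalized count + 1), with a trended prior, the replicate number as a block, a minimum mean normalized count of 10 over the 6 libraries and Benjamini-Hochberg adjustment, two-sided, and a gene was called at an adjusted p under 0.05. An exact permutation test of 3 against 3 libraries without pairing cannot go below p = 0.1. With libraries exchanged only within the 3 pairs, as in the fit, the floor is higher. The fit was tested on simulated counts with the same dispersion for every gene, changes of the same size, no pair effect and no outlying library. That test therefore cannot show how the fit does on libraries such as these. Levels (RPM) are recovered reads scaled to 1000000 reads on genes. Alternatives used edgeR 4.0.16 and DESeq2 1.42.0 on recovered reads. Figures and sequences were handled with Python 3.11.15.

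The members and gene lists were chosen with earlier results of these data known. All 10 members are named. Of the related genes, those called are named, at most 8 a table, with further list members named for their role after their values were seen. The study's methods state batch correction per animal when applicable, without naming the tables, and control and KO cells had been transferred together in the parenchymal experiment. Same-numbered libraries were paired in all 3 tables on this basis, although nothing found in the sources used here states either for the spleen tables, and the labels do not say that a number marks an animal. Deviations of same-numbered libraries correlated at 0.126, 0.159 and -0.003 in parenchyma, 0.0889, 0.0768 and 0.175 in the spleen *Ets1* table and 0.145, 0.00617 and 0.122 in the spleen *Grk2* table. Between different-numbered libraries the values ran from -0.162 to 0.0447, from -0.115 to 0.0496 and from -0.132 to 0.0167. Parenchymal replicate 3 and spleen *Grk2* replicate 2 lay within these ranges. The study states that its replicates are biological, but the labels do not tie libraries to animals, so p-values refer to these samples. They do not measure a gene's own spread alone, since the trended prior pulls each gene's variance toward that of other genes. *Nefl* in spleen *Ets1* had an SE of 0.23, with pair ratios of 0.50, 1.91 and 1.51 (SD 0.73). Deposited tables of the authors' own comparisons (fold changes and p-values), pathway lists and 8 columns of human cells were not used. The result of 1 marker list is not reported here.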

Additional observations from a re-analysis of the deposited data

How the results depend on the processing

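Without the replicate block that pairs same-numbered libraries, 200 (parenchyma *Ets1*), 71 (spleen *Ets1*) and 19 (spleen *Grk2*) genes were called, against 366, 155 and 109 with it, and in *Grk2* 3 members and 0 related genes. Without a filter on low counts 212 and 242 genes were called in the *Ets1* tables, and with a minimum of 50, 60 in *Grk2*. Without a trended prior limma called 3, 0 and 0 genes, 0 members and 0 related genes, although 893, 785 and 571 genes, 3, 2 and 5 members and 4, 4 and 1 related genes had an unadjusted p under 0.05. DESeq2 called 90, 48 and 9 genes, 3 *Grk2* members and 1, 1 and 0 related genes, and edgeR 238 genes in spleen *Ets1*. Quantile normalization left 3 *Grk2* members. *Sun1*, the related gene called in *Grk2*, was lost (0 called) under every setting so far and under upper quartile scaling, with 0 (DESeq2) to 7 (no filter) related genes at an unadjusted p under 0.05. The cause of these changes was not tested. Leaving out 1 pair gave 163 to 277, 3 to 232 and 6 to 50 genes, 0 to 2 members in spleen *Ets1* and 3 to 5 in *Grk2*, and 1 to 3, 1 to 3 and 0 to 1 related genes. The fewest in spleen *Ets1* came without pair 1. Of 349 alternative values of the members' fold changes, 346 moved by less than the spread (SD) between pairs. Many of them could not do otherwise. The block, filter and prior settings leave a fold change as it was, and leaving out 1 pair cannot move it by that SD. No conclusion is drawn from this count. No called fold change changed sign. The members' median control level ratio of parenchyma to spleen stayed between -1.74 and -1.33. Depth limits *Lmna* and *S100a11* in parenchyma.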
